A study of Mus musculus with 12 samples.

Results

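The genes described here are 10 genes of glucose production and glycogen handling in liver: Pck1, G6pc, Fbp1, Pcx, Gys2, Pygl, Ugp2, Slc37a4, Ppp1r3b and Ppp1r3c. They were chosen by name, as the entries of the gene count table with these symbols. All 10 were found among the 55421 genes of the table, and all 10 were among the 14076 that passed a filter on low counts. RNA sequencing was done on livers of adult male C57BL/6 mice of 2 related lines, Fra1hep and Fra2hep, which carry a transgene for an AP-1 subunit that doxycycline keeps off. AP-1 factors pair a Fos-family protein with a Jun-family protein to bind DNA, and Fra-1 and Fra-2 are the products of Fosl1 and Fosl2. The groups were Fra1 controls, Fra1 mutants, Fra2 controls and Fra2 mutants, with 3 libraries each from separate mice. In every group doxycycline was withdrawn at weaning, 3 weeks after birth, and controls were littermates that shared the cage.

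Titles and design text place sampling 2 months after induction in all 4 groups. Their treatment labels differ for the Fra2 mutants, which carry 9 months, and the Fra2 controls, which carry 2 months, so age and genotype cannot be told apart in the Fra2 comparison if that label is right. The sources used here do not give which cells express the transgene, nor the feeding state and time of day at sampling. The transcripts named by the labels were present: Fosl1 had 172, 193 and 252 counts in the Fra1 mutants against 0, 0 and 1 in their controls. Fosl2 stood at 398, 421 and 421 CPM (counts scaled to library size) in the Fra2 mutants against 12.2, 48.1 and 16.0 in their controls. Library totals ran from 16834041 to 20464807 counts, and the 10 genes had between 375 counts (Ppp1r3c) and 66311 counts (Pck1) in a library.

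Gluconeogenesis builds glucose from pyruvate, amino acids and glycerol, and the liver uses it to hold blood glucose during a fast. Pyruvate carboxylase (Pcx), phosphoenolpyruvate carboxykinase (Pck1), fructose-1,6-bisphosphatase (Fbp1) and glucose-6-phosphatase (G6pc) carry out its committed steps, and G6pc also takes the product of glycogen breakdown. Transcription of Pck1 and G6pc is induced by glucagon through cAMP and by glucocorticoids, and repressed by insulin.

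Promoter sequence is shown for Pck1 and G6pc because they were the members whose 3 Fra1 mutant libraries all lay below the 3 Fra1 controls. Each window holds the 250 bases before the RefSeq transcription start on build GRCm38.p6, plus strand, chr2:173152823-173153072 for Pck1 and chr11:101367466-101367715 for G6pc. The capitals mark matches, on either strand, to TTACGTNA (a sequence close to the cAMP response element TGACGTCA), CAAAACA (the core of the insulin response element, read here on the minus strand as TGTTTTG) and TATAAA (the TATA box).
Pck1: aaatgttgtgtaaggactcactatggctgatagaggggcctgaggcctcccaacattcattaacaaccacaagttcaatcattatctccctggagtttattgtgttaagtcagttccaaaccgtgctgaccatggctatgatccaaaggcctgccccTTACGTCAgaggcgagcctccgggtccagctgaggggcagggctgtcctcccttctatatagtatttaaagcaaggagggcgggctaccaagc
G6pc: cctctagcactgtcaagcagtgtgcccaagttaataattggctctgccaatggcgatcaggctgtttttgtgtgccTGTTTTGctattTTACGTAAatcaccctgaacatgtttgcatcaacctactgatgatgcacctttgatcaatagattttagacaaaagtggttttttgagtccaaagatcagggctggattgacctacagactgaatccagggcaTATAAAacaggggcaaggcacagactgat
The TTACGTNA match lay 93 to 86 bases before the start of Pck1 and 162 to 155 bases before that of G6pc. GENCODE M21 places the gene starts 25 bases (Pck1) and 155 bases (G6pc) upstream of the RefSeq starts. TTACGTNA was chosen after these sequences were seen. It occurred in 0.788% of 32851 windows of the same length in the RefSeq table, CAAAACA in 5.56% and TATAAA in 12.4%. The full cAMP response element TGACGTCA, present in 1.55% of all windows, and the AP-1 sequence TGACTCA, present in 4.46%, were in 0 of the 12 windows of the members. Windows were found by symbol for 8 of the 10 members, all but Gys2 and Ppp1r3b. TATAAA was found in the windows of G6pc and Slc37a4. A match is a description of the letters and not of a bound site.

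In control liver Pck1, Fbp1 and G6pc were the most abundant of the 10 transcripts per length. Over the 6 controls of both lines, Pck1 averaged 593 CPM per kilobase of annotated exon ± 248 (SD, n = 6), Fbp1 532 ± 91.3 and G6pc 268 ± 103. The ranges of Pck1 and Fbp1 overlapped, as did those of Fbp1 and G6pc. A gap followed: the lowest control for G6pc, 159 per kilobase, was above the highest for Ugp2, 146. Ugp2 (122 ± 14.2), Pcx (114 ± 9.70), Pygl (86.7 ± 15.2), Gys2 (72.9 ± 21.2), Slc37a4 (63.7 ± 23.9), Ppp1r3b (48.0 ± 24.2) and Ppp1r3c (30.1 ± 10.7) came next in CPM per kilobase, and each overlapped its neighbour in this order. With the length of the longest transcript in place of all annotated exon, Pygl stood at 190 per kilobase and moved from place 6 to place 4. Shares of enzyme families were taken per kilobase in each of the 12 libraries. Pck1 held at least 99.4% of the sum with the mitochondrial Pck2, Fbp1 at least 99.95% of that with Fbp2, and G6pc at least 95.1% of that with G6pc2 and G6pc3. Gys2 held at least 97.6% of the sum with Gys1, and Pygl at least 89.4% of that with Pygb and Pygm, its lowest share being in a Fra1 mutant. G6pc2 had 0 counts in each of the 12 libraries, which allows up to 3 counts per library.

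The comparison of Fra1 mutants with their littermates asks which of these genes differ when Fra-1 is induced. G6pc fell 3.12-fold, and it was the only member of the 10 to pass the test. Pck1 was 2.22-fold lower by the fitted means and did not pass. The other 8 members had log2 fold changes between -0.63 and 0.04, and none of them passed. EdgeR's quasi-likelihood test with Benjamini-Hochberg adjustment over the 14076 genes called 1 of 10 members lower and 0 higher, where 0.938% of all genes tested were called lower, 2.90% higher and 3.84% either way. By sign, 9 of the 10 were negative, with a median log2 fold change of -0.26, while 49.0% of all genes tested were negative, with a median of 0.01. All tests were two-sided, and in bulk liver fewer cells of a type and less RNA per cell cannot be told apart.

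G6pc (ENSMUSG00000078650.2, chromosome 11, 101367561 to 101377903, plus strand, GRCm38) encodes the catalytic subunit of glucose-6-phosphatase, the enzyme that frees glucose for release. It stood at 804, 459 and 524 CPM in Fra1 controls 1, 2 and 3 and at 255, 136 and 181 CPM in Fra1 mutants 1, 2 and 3. The highest mutant was thus below the lowest control. The means were 191 CPM ± 60.2 in the mutants and 596 ± 183 in the controls (SD, n = 3 each). The log2 fold change was -1.64 ± 0.35 (SE; 95% interval -2.42 to -0.86), with an edgeR adjusted p of 0.0261. The call depended on single libraries. It was lost without control 1 (log2 fold change -1.38, adjusted p = 0.107), control 3 (-1.75, 0.0515), mutant 2 (-1.45, 0.0868) or mutant 3 (-1.62, 0.0817), and when no filter on low counts was used (-1.64, 0.0794). Over all 20 alternative settings the log2 fold change ran from -1.92 to -1.38 and the adjusted p from 8.33e-05 (DESeq2) to 0.107.

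Slc37a4 (chromosome 9, 44396852 to 44402968, plus strand) encodes the transporter that brings glucose 6-phosphate to G6pc in the endoplasmic reticulum. Its Fra1 controls had 241, 143 and 179 CPM and its mutants 153, 64.7 and 146. The groups overlapped, mutant 2 being the lowest of the 6, and the log2 fold change of -0.63 ± 0.40 (SE) did not pass (edgeR adjusted p = 0.476). The count of G6pc over that of Slc37a4 in the same library was 3.34, 3.21 and 2.92 in the Fra1 controls and 1.67, 2.10 and 1.24 in the mutants, without overlap. Because G6pc is the called member, this ratio is a description of the same libraries and not a separate test. In the Fra2 line this count ratio was 6.37, 2.71 and 3.70 in the controls and 4.26, 4.64 and 5.66 in the mutants, which overlapped.

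Pck1 (ENSMUSG00000027513.11, chromosome 2, 173153048 to 173159273, plus strand) encodes the cytosolic enzyme that makes phosphoenolpyruvate from oxaloacetate. It stood at 2045, 1933 and 1263 CPM in the Fra1 controls and at 456, 1033 and 876 in the mutants. Here too the groups did not overlap, and the lowest mutant was number 1, which was the highest mutant for G6pc. Both members without overlap had the mutants on the lower side, as did 9.98% of all genes tested. For Pck1 the log2 fold change was -1.15 ± 0.38 (SE; 95% interval -1.98 to -0.32) and the edgeR adjusted p 0.141. DESeq2 gave -1.16 and an adjusted p of 0.0269, so that it called 2 of the 10 members, whereas limma-voom called G6pc alone. Of all genes tested DESeq2 called 1021 and limma-voom 515. Across the 20 alternatives, Pck1 kept a negative sign, from -1.39 to -0.88, with adjusted p from 0.0269 to 0.346.

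Fbp1 (chromosome 13, 62864753 to 62888282, minus strand) had 1061, 812 and 963 CPM in the Fra1 controls and 667, 1006 and 864 in the mutants. Pcx (chromosome 19, 4510472 to 4621752, plus strand) had 536, 554 and 519 CPM in the controls and 490, 433 and 534 in the mutants. Neither enzyme passed. The log2 fold change of Fbp1 was -0.16 ± 0.20 (SE; 95% interval -0.60 to 0.28) and that of Pcx -0.14 ± 0.14 (-0.44 to 0.16). The interval of Pcx was the narrowest of the 10 members and that of Ppp1r3b the widest. Pcx overlaps Lrfn4 on the other strand, which had 3 to 16 counts per library, against at least 8202 for Pcx.

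**Figure D1:**
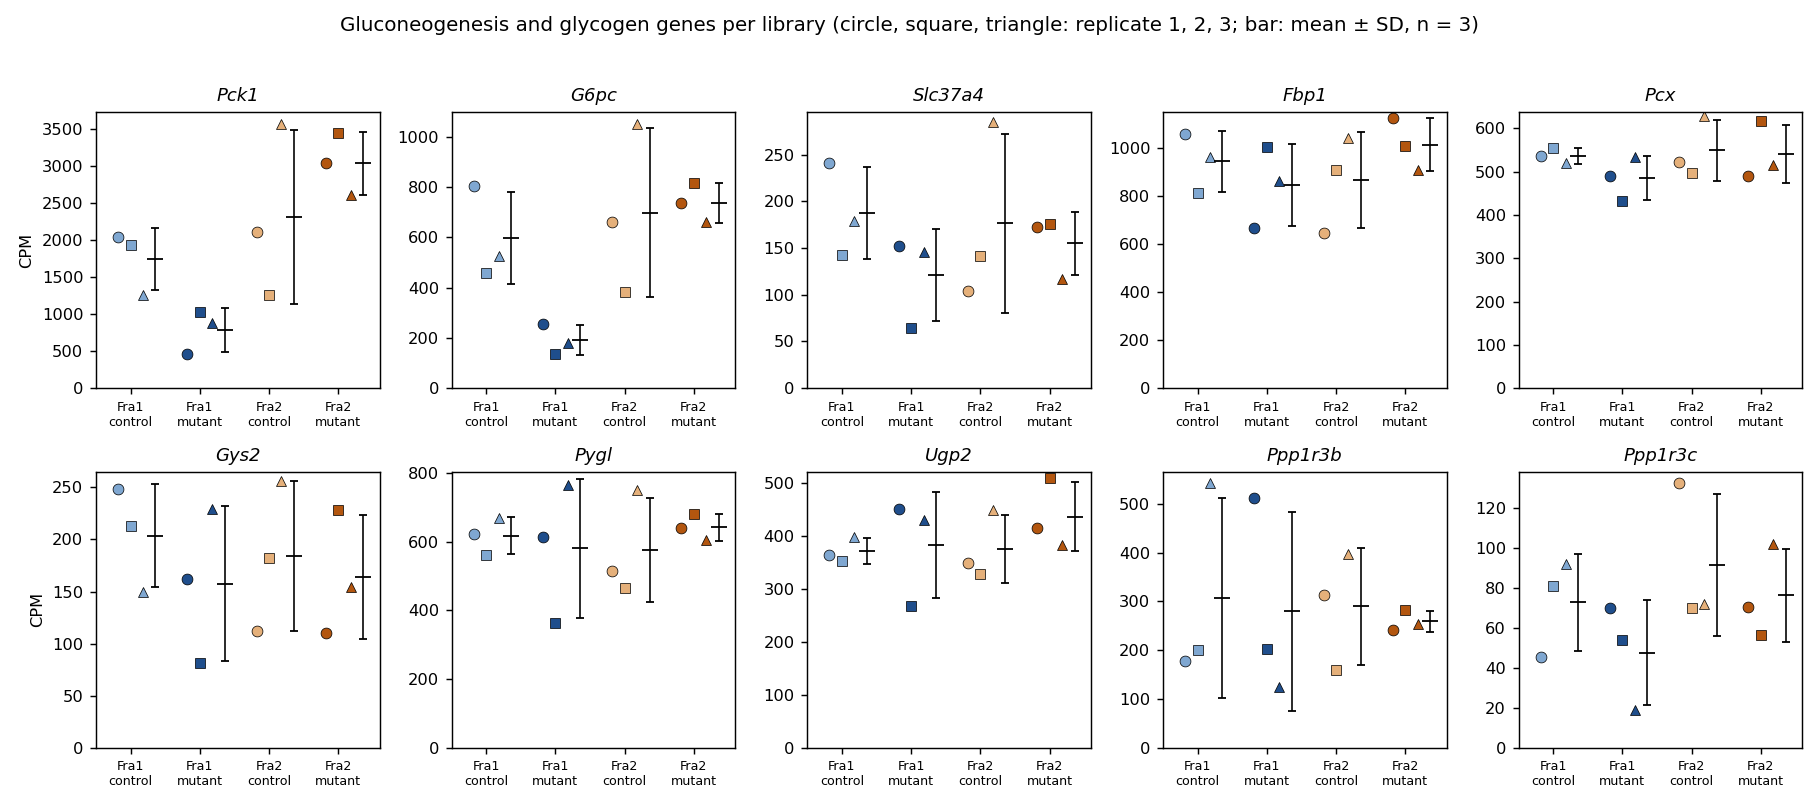
CPM (vertical axis, linear, from 0) of the 10 genes in each of the 12 libraries, by group, with the mean and SD of 3 libraries as a bar beside the points. The Fra1 mutants lie below all Fra1 controls for Pck1 and G6pc, and the groups overlap for the other 8 genes and for all 10 in the Fra2 line.

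Glycogen is made from UDP-glucose by glycogen synthase and broken down by glycogen phosphorylase, and protein phosphatase 1, held on glycogen by targeting subunits, turns the synthase on and the phosphorylase off. Ugp2 (chromosome 11, 21321138 to 21371201, minus strand), which makes UDP-glucose, had 364, 353 and 399 CPM in the Fra1 controls and 451, 267 and 431 in the mutants. Mutants 1 and 3 were above all the controls and mutant 2 below them, and the log2 fold change was 0.04 ± 0.20 (SE). Gys2 (chromosome 6, 142422613 to 142473109, minus strand), the liver glycogen synthase, had 248, 213 and 150 CPM in the controls and 162, 81.3 and 229 in the mutants (log2 fold change -0.37 ± 0.40). Pygl (chromosome 12, 70190811 to 70231488, minus strand), the liver phosphorylase, had 623, 561 and 669 CPM in the controls and 613, 365 and 766 in the mutants (-0.09 ± 0.25). For all 3 the lowest of the 6 libraries was mutant 2. The edgeR adjusted p values were 0.944 for Ugp2, 0.709 for Gys2 and 0.906 for Pygl. The sign of Pygl turned without mutant 2 (0.16) and that of Ugp2 without mutant 1 (-0.10).

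The glycogen-targeting subunits had the largest spread within groups of the Fra1 line. Ppp1r3b (chromosome 8, 35375739 to 35388139, plus strand), the main targeting subunit of liver, had 177, 200 and 543 CPM in the Fra1 controls and 511, 203 and 125 in the mutants. A single library in each group stood far above the others, and the log2 fold change was -0.13 ± 0.55 (SE; 95% interval -1.35 to 1.08; adjusted p = 0.934). Without control 3 it was 0.55. Ppp1r3c (chromosome 19, 36731731 to 36736653, minus strand), another targeting subunit, had 45.6, 80.7 and 91.9 CPM in the controls and 70.1, 53.7 and 19.0 in the mutants. The groups overlapped, and its log2 fold change was -0.61 ± 0.45 (SE; adjusted p = 0.550). Ppp1r3b is overlapped on the other strand by the noncoding Gm45469, which had 5 to 18 counts per library. The kit marked strand, and the sources used here do not give whether the counting used it.

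The comparison of Fra2 mutants with their littermates asks the same of Fra-2. None of the 10 genes passed the test in that line, and 0 had groups that did not overlap, against 8.17% of all genes tested with all mutants lower and 9.31% with all mutants higher. By edgeR, 0 of 10 were called, and DESeq2 and limma-voom called 0 as well. An unadjusted p under 0.05 was reached by 0 members and by 1613 of the 14076 genes tested. Of all genes tested 1.07% were called either way, 0.845% higher and 0.220% lower. By sign, 5 members were positive and 5 negative, with a median log2 fold change of 0.03 against -0.01 over all genes tested.

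Pck1 stood at 2118, 1255 and 3580 CPM in the Fra2 controls and at 3047, 3458 and 2614 in the mutants. The controls spanned a 2.85-fold range that held all 3 mutants, and the log2 fold change was 0.39 ± 0.37 (SE; 95% interval -0.43 to 1.21; adjusted p = 0.775). G6pc had 660, 383 and 1052 CPM in the controls and 735, 816 and 660 in the mutants. Its mutants also lay within the range of the controls, which was 2.75-fold, and the log2 fold change was 0.08 ± 0.35 (-0.68 to 0.84; adjusted p = 0.968).

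Fbp1 had 648, 909 and 1042 CPM in the Fra2 controls and 1128, 1010 and 909 in the mutants, a log2 fold change of 0.23 ± 0.20 (SE). Pcx had 523, 496 and 628 CPM against 490, 617 and 515 (-0.02 ± 0.14). Slc37a4 had 104, 141 and 285 CPM against 173, 176 and 117 (-0.19 ± 0.40). For these 3 genes the groups overlapped. Ugp2, with 350, 328 and 449 CPM in the controls and 416, 510 and 384 in the mutants, gave 0.22 ± 0.20. Pygl, with 515, 466 and 751 CPM against 642, 683 and 604, gave 0.16 ± 0.25. Gys2, with 112, 182 and 256 CPM against 110, 228 and 154, gave -0.16 ± 0.40. For these 3 genes too the groups overlapped. Ppp1r3b had 313, 159 and 397 CPM against 241, 283 and 253, and Ppp1r3c 132, 70.1 and 72.0 against 70.4, 56.5 and 102. Their log2 fold changes were -0.16 ± 0.55 and -0.26 ± 0.45 (SE). For Ppp1r3b the mutants were close together, within 1.17-fold, and the controls spread over 2.49-fold.

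The interaction test, the Fra2 effect minus the Fra1 effect, asks whether the lines differ. It called 0 of the 10 members by edgeR, where 0.0355% of all genes tested were called, 0.00710% higher and 0.0284% lower. Of the members 2 had an unadjusted p under 0.05, as had 889 of the 14076 genes tested. DESeq2 and limma-voom called 0 members, and 69 and 0 of all genes tested. For G6pc the difference was 1.72 ± 0.49 on the log2 scale (SE; 95% interval 0.64 to 2.80) and the adjusted p 0.488. For Pck1 it was 1.54 ± 0.53 (0.37 to 2.71) and the adjusted p 0.640. The G6pc call in Fra1 mutants is therefore not shown to be particular to that line. Between the controls of the 2 lines edgeR called 0 of 10 members and 0 of all genes tested (0%). Of all genes tested 753 had an unadjusted p under 0.05, and DESeq2 called 18 and limma-voom 0. No member reached an unadjusted p under 0.05 there by edgeR. The member with the largest difference was Pck1, 0.41 ± 0.37 higher in Fra2 controls (log2, SE).

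The mean of both lines' effects, each line weighted equally, called 0 members by edgeR, where 6.24% of all genes tested were called, 4.33% higher and 1.90% lower. By edgeR 2735 of the 14076 genes tested had an unadjusted p under 0.05, and 1 member did. That was G6pc, with -0.78 ± 0.25 (log2, SE) and an adjusted p of 0.0952. DESeq2 called it (-0.79, adjusted p = 0.0167), limma-voom called 0 members, and edgeR called it without Fra2 control 2 (-0.93, 0.0299). Of all genes tested DESeq2 called 1348 and limma-voom 832.

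**Figure D2:**
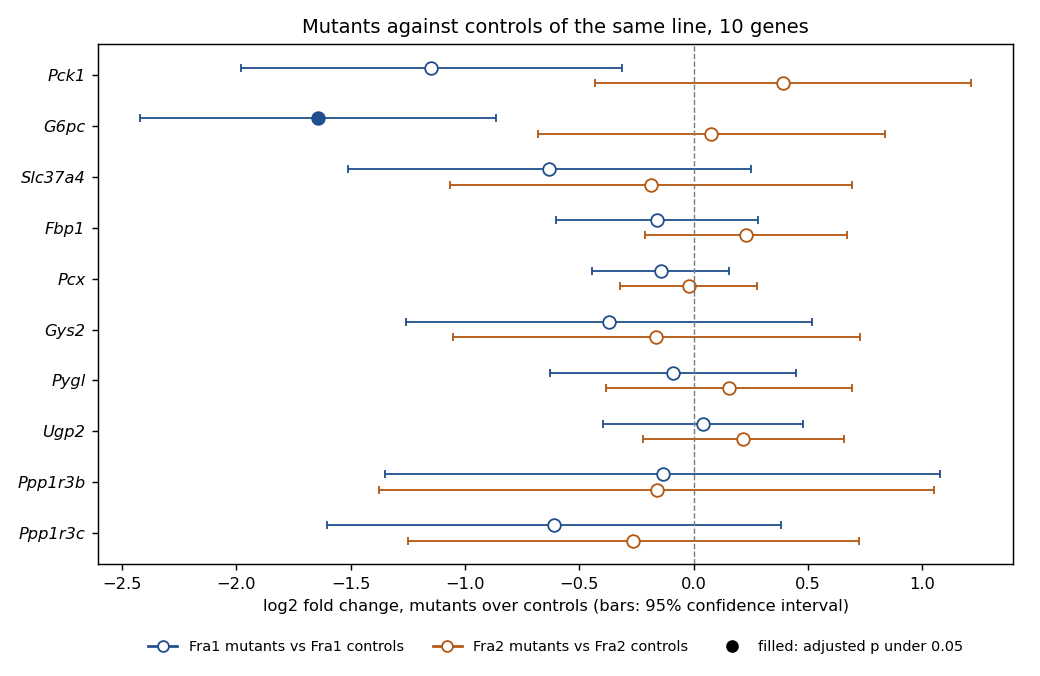
Log2 fold change of mutants over controls (horizontal axis) for the 10 genes in the Fra1 line (blue) and the Fra2 line (orange), with 95% confidence intervals from the edgeR fit. The filled point, G6pc in Fra1 mutants at -1.64, is the call; the interval of Pck1 in that line, -1.98 to -0.32, leaves out 0 without passing the adjusted test.

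Within groups, single libraries were high or low for many members at once. Fra2 control 3 was the highest of its group for 9 of the 10 members, all but Ppp1r3c, and Fra2 control 2 was the lowest for 7. Fra2 mutant 2 was the highest for 8, and Fra2 mutant 3 the lowest for 6. In the Fra1 line mutant 2 was the lowest for 6 members, namely G6pc, Pcx, Gys2, Pygl, Ugp2 and Slc37a4, and the highest for Pck1 and Fbp1. For Pck1 and G6pc the range of the Fra2 controls runs from control 2 to control 3. Without control 2 the Fra2 log2 fold change of G6pc was -0.22. On leaving out each single library in turn it ran from -0.22 to 0.50. Fra2 control 2 also had the highest Fosl2 among the controls, at 48.1 CPM, and a link of Fosl2 to its levels of the members was not tested.

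To describe this, deviations of log2 CPM from the group means were correlated between members over the 12 libraries, which share 4 groups and so have fewer independent values than libraries. Of the 45 pairs 32 were positive, with a median Pearson r of 0.22 and a range from -0.66 to 0.91. The closest pair was Pygl and Ugp2, with r = 0.91 (exact permutation within groups, two-sided, p = 0.00617, adjusted over the pairs 0.223) and Spearman's rho of 0.91 (exact p = 0.00540, adjusted 0.170). Without the 2 libraries farthest from the median of Pygl, r was 0.87. No pair passed the adjustment. With 1296 arrangements the smallest p is 0.000772. Pck1 and G6pc, both without overlap in the Fra1 line, had r = 0.36 within groups (exact permutation p = 0.503, adjusted 0.781).

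**Figure D3:**
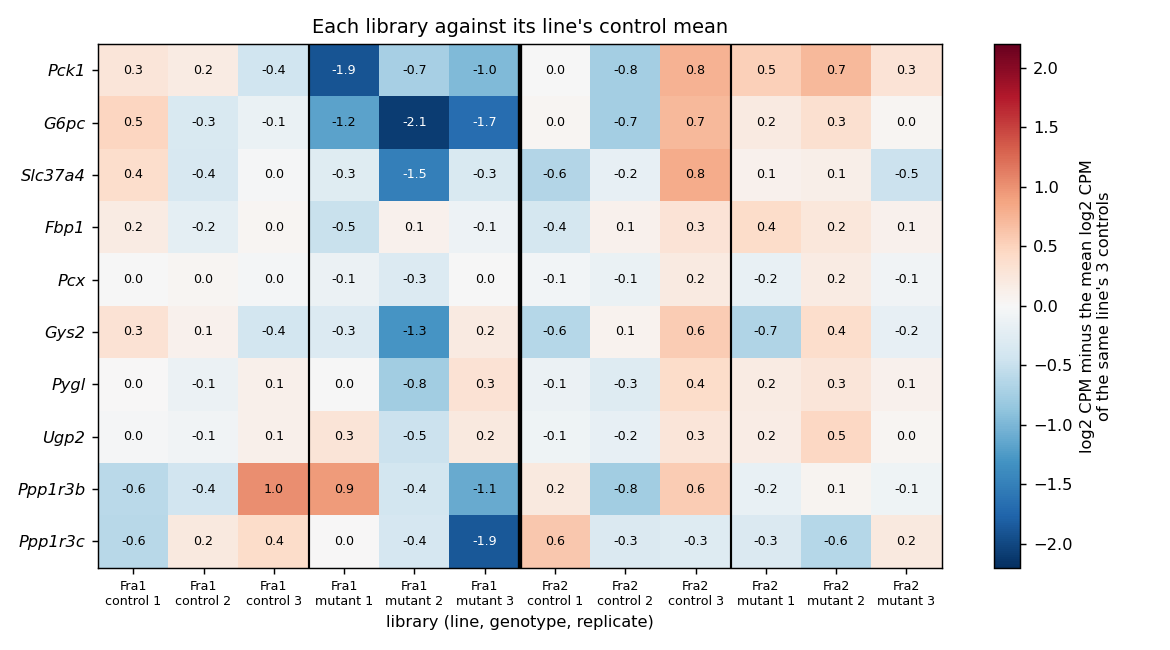
Log2 CPM of each library minus the mean of its line's 3 controls, for the 10 genes (rows) and 12 libraries (columns). Blue is lower and red higher; G6pc and Pck1 are blue in all 3 Fra1 mutants, and Fra2 control 3 is red for every gene but Ppp1r3c.

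Across all 12 libraries, the protein-coding genes whose log2 CPM was most like that of G6pc, among the 12782 compared, were Tomm70a (Pearson r = 0.95), Slc25a25 (0.95) and Cyp2j6 (0.95). The most opposite was Ly6c2 (r = -0.92). These are descriptions over libraries that share the 4 groups. Tomm70a, a subunit of the import receptor of the mitochondrial outer membrane, ranged from 107 to 140 CPM and Cyp2j6 from 74.5 to 100.5 CPM. Slc25a25, a calcium-regulated mitochondrial carrier, ranged from 32.8 to 419 CPM, and Ly6c2 from 0.270 to 1.21 CPM.

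A list of 68 other genes of gluconeogenesis, glycolysis and glycogen metabolism held 62 that were tested. In Fra1 mutants 2 of them rose and 1 fell by edgeR, with a median log2 fold change of -0.05, where 2.90% of all genes tested rose and 0.938% fell. In Fra2 mutants edgeR called 0, against 1.07% of all genes. DESeq2 called 4 and limma-voom 0, against 448 and 140 of all 14076 genes tested. An unadjusted p under 0.05 was reached by 9 of the 62 and by 1613 of the 14076. For the mean of both lines 2 were higher and 4 lower, where 4.33% of all genes were called higher and 1.90% lower. The interaction called 0 by edgeR, against 0.0355% of all genes, and 0 by DESeq2 and limma-voom. There 3 of the 62 had an unadjusted p under 0.05, as had 889 of the 14076.

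Gpt2, the mitochondrial alanine aminotransferase that turns alanine into pyruvate, rose in Fra1 mutants. It had 345, 331 and 345 CPM in the controls and 958, 712 and 774 in the mutants, so that the log2 fold change was 1.26 ± 0.22 (SE, edgeR adjusted p = 0.00768). The call held in each of the 20 alternatives, with adjusted p up to 0.0426. In the Fra2 line Gpt2 stood at 390, 400 and 615 CPM in the controls and 674, 1034 and 679 in the mutants, again without overlap. There the log2 fold change of 0.76 ± 0.22 did not pass (adjusted p = 0.152), and the interaction did not either (adjusted p = 0.864). The mean of both lines was 1.01 ± 0.15 (adjusted p = 0.00224).

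Pygb, the brain isozyme of glycogen phosphorylase, rose in Fra1 mutants while Pygl did not pass. Pygb had 3.46, 6.68 and 5.17 CPM in the controls and 34.0, 27.5 and 18.9 in the mutants, a log2 fold change of 2.38 ± 0.53 (SE, adjusted p = 0.0303). The groups did not overlap. Per kilobase of annotated exon, Pygb was 0.787% to 1.67% of phosphorylase transcripts in the Fra1 controls and 3.39% to 9.68% in the mutants. With longest-transcript lengths these shares were 0.445% to 0.948% and 1.94% to 5.71%. The call of Pygb was lost without any single Fra1 control (adjusted p = 0.133, 0.0746 and 0.103 for controls 1, 2 and 3), without mutant 1 (0.0859) or mutant 2 (0.0620), and without a filter on low counts (0.115). In the Fra2 line it had 10.9, 5.14 and 6.15 CPM in the controls and 4.79, 19.0 and 5.30 in the mutants, with 1 mutant far above the others.

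Mpc1, a subunit of the mitochondrial pyruvate carrier that feeds pyruvate to Pcx, fell in Fra1 mutants, from 22.0, 20.5 and 19.3 CPM to 12.9, 10.5 and 12.7. The log2 fold change was -0.78 ± 0.17 (SE, edgeR adjusted p = 0.0284). Its groups did not overlap, and the call was lost on leaving out any of the 6 Fra1 libraries (adjusted p from 0.0562 to 0.110), with the replicate number as a block (0.0525) and without a scaling factor (0.0699). In the Fra2 line Mpc1 had 16.8, 26.0 and 18.2 CPM in the controls and 14.1, 18.1 and 16.8 in the mutants, which overlapped.

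In the mean of both lines Slc25a1, the mitochondrial citrate carrier, was lower by 0.42 on the log2 scale (-0.42 ± 0.08, SE; edgeR adjusted p = 0.0110), and the call held in each alternative. Its libraries had 329, 260 and 272 CPM in the Fra1 controls against 221, 208 and 211 in the mutants, and 253, 297 and 258 against 213, 196 and 201 in the Fra2 line, without overlap in either. Ppp1r3g, a glycogen-targeting subunit like Ppp1r3b and Ppp1r3c, was also lower. It had 35, 21 and 5 counts in the Fra1 controls and 1, 6 and 4 in the mutants, and 15, 28 and 65 counts in the Fra2 controls against 1, 6 and 2. With so few counts its log2 fold change, -3.05 ± 0.63 (adjusted p = 0.0140), is imprecise. Gaa, the lysosomal enzyme that breaks down glycogen, was lower as well (-0.37 ± 0.10, adjusted p = 0.0469). The Gaa call was lost on leaving out any of 10 libraries (adjusted p from 0.0504 to 0.105), without a filter (0.0567) and without a scaling factor (0.142). Mpc1 (-0.55 ± 0.12, adjusted p = 0.0208) and Pygb (1.39 ± 0.36, adjusted p = 0.0479) were the other calls. The call of Pygb was lost in 12 of 19 alternatives (0.0570 to 0.165) and that of Mpc1 in 3, namely without Fra1 control 1 (0.0527), without Fra2 mutant 1 (0.0505) and without a scaling factor (0.0541). The remaining genes of the list did not pass in any comparison. Pgm3, a phosphoglucomutase family member that acts in hexosamine synthesis, had 0.72 ± 0.19 (log2, SE) in Fra2 mutants (adjusted p = 0.122).

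**Figure D4:**
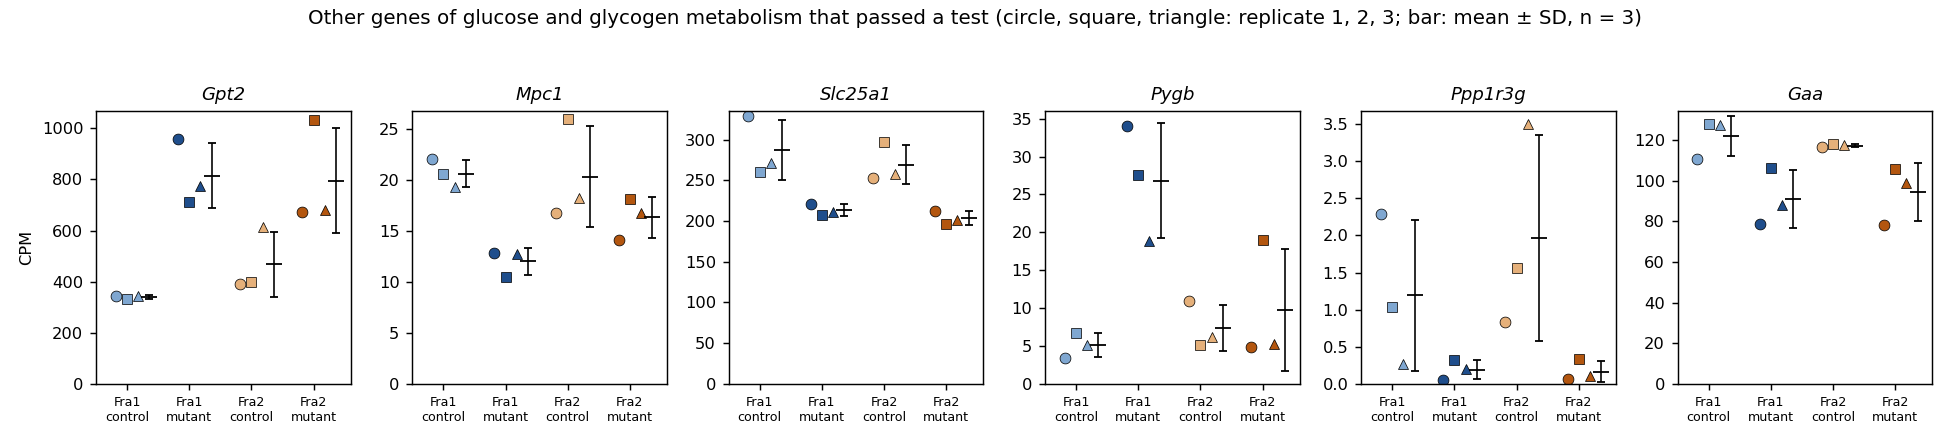
CPM (vertical axis, linear, from 0) of the 6 other genes of glucose and glycogen metabolism that passed edgeR's test in Fra1 mutants or in the mean of both lines, by group, with mean and SD of 3 libraries. Gpt2 and Pygb are higher and Mpc1 lower in all 3 Fra1 mutants, whereas Ppp1r3g, Gaa and Slc25a1 passed in the mean of both lines.

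Of 30 transcription factors, receptors and signalling genes that regulate gluconeogenesis, edgeR called 0 in either line. Of all genes tested it called 3.84% in Fra1 and 1.07% in Fra2 mutants. Unadjusted p values under 0.05 numbered 4 in Fra1 and 1 in Fra2 mutants, against 2296 and 1613 of all 14076 genes tested. DESeq2 and limma-voom called 0 of the 30 in both. Srebf1, a lipogenic factor induced by insulin, had the largest value in the Fra1 line (log2 fold change 0.77 ± 0.29, SE; adjusted p = 0.203). Hnf4a, a factor of hepatocyte identity that binds gluconeogenic promoters, had 0.43 ± 0.16 (adjusted p = 0.211). Creb3l3, a fasting-induced liver factor, had 433, 371 and 377 CPM in the Fra1 controls and 255, 291 and 364 in the mutants, and 274, 344 and 324 against 417, 397 and 438 in the Fra2 line. Its groups did not overlap in either line and lay in opposite directions, with log2 fold changes of -0.38 ± 0.15 (adjusted p = 0.217) and 0.41 ± 0.15 (0.281). Akt2, the insulin-signalling kinase, had 0.19 ± 0.10 in Fra2 mutants (adjusted p = 0.486). The interaction of Creb3l3 did not pass by edgeR (0.79 ± 0.21, adjusted p = 0.454). Over the 30 genes the interaction called 0 by edgeR, 1 by DESeq2 and 0 by limma-voom. Of all genes tested it called 5 by edgeR and 69 by DESeq2.

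Genes that respond to feeding or fasting were counted because the feeding state was not given. Of 15 tested, edgeR called 0 in either line, where 3.84% of all genes tested were called in Fra1 and 1.07% in Fra2 mutants. In Fra1 mutants 14 of 15 were negative, with a median log2 fold change of -0.63, and 7 had all mutants below all controls, as had 9.98% of all genes tested. In Fra2 mutants 11 of 15 were negative, with a median of -0.40. Unadjusted p values under 0.05 numbered 4 in Fra1 and 1 in Fra2 mutants, against 2296 and 1613 of all 14076 genes tested. DESeq2 called 1 of the 15 in each, against 1021 and 448 of all genes tested, and limma-voom called 0 of the 15. In the mean of both lines all 15 were negative, with a median of -0.42. EdgeR called 0 of them there, where 6.24% of all genes tested were called. With edgeR 7 had an unadjusted p under 0.05, as had 2735 of the 14076 genes tested. DESeq2 called 2 of the 15 and 1348 of all genes tested, and limma-voom called 0 of the 15. The list mixes genes induced by fasting and by feeding. Pnpla3, induced by feeding, had 3.92, 6.53 and 5.06 CPM in the Fra1 controls and 1.09, 1.63 and 1.32 in the mutants (log2 fold change -1.94 ± 0.52, SE; adjusted p = 0.0674). Me1, the lipogenic malic enzyme, had -1.28 ± 0.55 (adjusted p = 0.272). In Fra2 mutants Sesn1 had -0.48 ± 0.13 (0.146) and Txnip -0.41 ± 0.23 (0.570). Of 17 clock genes edgeR called 0 in either line, against 3.84% of all genes tested in Fra1 and 1.07% in Fra2 mutants. In both lines 0 had an unadjusted p under 0.05, and DESeq2 and limma-voom called 0. Ciart (1.50 ± 1.05, adjusted p = 0.524) and Per3 (0.68 ± 0.68, 0.678) had the smallest p in Fra1 mutants. Both were highest in mutant 1: Ciart had 19.5, 1.21 and 2.08 CPM in mutants 1, 2 and 3, and Per3 34.5, 3.69 and 17.5. In Fra2 mutants Nr1d1 had -0.35 ± 0.20 (0.577). The part of feeding state or time of day in the G6pc difference was not tested.

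Markers of liver zones were summed in each library. Gluconeogenesis is known to be strongest in periportal hepatocytes. The 7 periportal markers other than Pck1 summed to 4574 to 5856 CPM in the Fra1 controls and 5008 to 6224 in the mutants, which overlapped. The 8 pericentral markers summed to 9658 to 10051 CPM in the Fra1 controls and 2723 to 7950 in the mutants, without overlap. All 8 had negative log2 fold changes, with a median of -0.76. EdgeR called 0 of them, where 3.84% of all genes tested were called. With edgeR 5 had an unadjusted p under 0.05, as had 2296 of the 14076 genes tested. DESeq2 called 2 of the 8 and 1021 of all genes tested, and limma-voom called 0 of the 8. Slc1a2 (-0.89 ± 0.26, SE; adjusted p = 0.0943) and Rgn (-1.36 ± 0.42, 0.114) had the smallest p. In the Fra2 line the pericentral sums were 9805 to 11257 CPM in the controls and 8663 to 14683 in the mutants. Of the 8 markers there, 5 were positive and 3 negative, with a median log2 fold change of 0.06. EdgeR called 0 of them, where 1.07% of all genes tested were called. In that line Oat had 1.23 ± 0.31 (adjusted p = 0.110). It stood at 2147, 932 and 850 CPM in the Fra2 mutants and at 553, 616 and 502 in the controls. With Pck1 included, 4 of 8 periportal markers were positive and 4 negative in Fra1 mutants, with a median of 0.10. In Fra2 mutants 6 were positive and 2 negative, with a median of 0.12. The periportal marker Cyp2f2 had 0.61 ± 0.31 in Fra1 (adjusted p = 0.354) and 0.63 ± 0.31 in Fra2 mutants (0.476). Arg1, another of them, had -0.68 ± 0.39 in Fra1 (adjusted p = 0.432) and -0.56 ± 0.39 in Fra2 mutants (0.662). The periportal marker Hsd17b13 fell in Fra2 mutants (-0.92 ± 0.15, SE; edgeR adjusted p = 0.0165), a call lost without controls 2 or 3, mutants 1 or 3, or in a fit of the Fra2 libraries alone (adjusted p from 0.0621 to 0.0845). In the Fra1 line it had 464, 422 and 390 CPM in the controls and 275, 325 and 257 in the mutants, without overlap, and did not pass (-0.57 ± 0.15, adjusted p = 0.0636). The mean of both lines passed (-0.75 ± 0.11, adjusted p = 0.00152) and did so in each of its 19 alternatives.

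Markers of other cell types were summed in the same way. The 8 stellate cell and fibroblast markers summed to 225 to 303 CPM in the Fra1 controls and 367 to 486 in the mutants, without overlap, and to 301 to 400 against 241 to 371 in the Fra2 line. Of these 8, edgeR called 2 higher in Fra1 mutants, where 2.90% of all genes tested were called higher. They were Dcn (log2 fold change 0.86 ± 0.12, SE; adjusted p = 0.00239) and Lum (1.33 ± 0.23, adjusted p = 0.00819). Lum also lay above all controls in the 3 Fra2 mutants (0.73 ± 0.23, adjusted p = 0.221). It passed in the mean of both lines (1.03 ± 0.16, adjusted p = 0.00322). Dcn had -0.23 ± 0.12 in Fra2 mutants (adjusted p = 0.526). Its mean was 114 CPM in the Fra1 controls and 177 in the Fra2 controls. The 7 hepatocyte markers summed to 89390 to 128412 CPM in the Fra1 controls and 59640 to 113680 in the mutants, which overlapped. In the Fra2 line they summed to 107776 to 128878 CPM in the controls and 63384 to 74187 in the mutants, without overlap. Most of that sum was Alb, with mean CPM of 92123 in the Fra2 controls and 44438 in the mutants (log2 fold change -1.05 ± 0.29, adjusted p = 0.133). Log2 fold changes were positive for 4 of the 7 markers, with a median of 0.0072 over the 7. For 3 of the 7 all Fra2 mutants lay below all controls, as for 8.17% of all genes tested. EdgeR called 0 of the 7 there, where 1.07% of all genes tested were called. Apoa1 had -1.17 ± 0.33 in Fra2 (adjusted p = 0.145), without overlap, and -0.87 ± 0.32 in Fra1 mutants (0.191). It passed in the mean of both lines (-1.02 ± 0.23, adjusted p = 0.0219). Sums of cholangiocyte, macrophage, sinusoidal endothelial and lymphocyte markers overlapped between mutants and controls in both lines. Markers of muscle and kidney, the other tissues that store glycogen or make glucose, summed to at most 5.59 CPM in any library. These sums overlapped in the Fra1 line. In the Fra2 line they were 0.726 to 1.99 CPM in the controls and 3.11 to 4.26 in the mutants, without overlap. Lrp2, the 1 of these markers that was tested, had 1.38 ± 0.54 in Fra2 mutants (log2, SE; edgeR adjusted p = 0.343). The part of these cell types and zones in the G6pc difference was not tested.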

How the data were processed

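The authors deposited unnormalized gene counts, in whole numbers, for 12 polyA-selected, stranded liver libraries. The submitters' processing notes list bedtools 2.27.1, DESeq2 1.22.2, RSEM and STAR 2.6.1a, and the build GRCm38 (mm10). The sources used here do not give which tool made the counts, the annotation release or the strand setting. Groups came from the titles. All intervals over libraries rest on 3 mice per group, and the fitted intervals use a spread per gene that the 4 groups share. PCR copies cannot be told from molecules. Members, lists, tests and alternatives were chosen with earlier results of these data known.

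Genes passing filterByExpr were tested with edgeR 4.0.16 (R 4.3.3): TMM factors, 4 group means, robust quasi-likelihood fit, glmQLFTest, and Benjamini-Hochberg adjusted p under 0.05 over all genes tested. CPM uses TMM-scaled totals. Standard errors and 95% intervals come from the test statistic. Alternatives were DESeq2 1.42.0 or limma-voom (limma 3.58.1) in place of edgeR, RLE factors or no scaling, no filter or at least 1 CPM in 3 libraries, a block for the replicate number, a fit of the compared groups alone, each library left out, and longest-transcript lengths. Beside the 10 members, genes of the other pathway, regulator, feeding, clock and zonation lists were named if called in any of the comparisons or among the 2 smallest p of their list in either line. A gene that this rule names is left out here. For G6pc, the called member, the 3 most alike genes and the most opposite one by Pearson r were named. Gene coordinates and lengths are from GENCODE M21 (GRCm38), which matched 55154 of 55421 identifiers. Promoters are from RefSeq (GRCm38.p6). Pairwise tests of counts found no replicates within sampling noise. The model was checked on simulated counts.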

Additional observations from a re-analysis of the deposited data

Results flagged for a closer look

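Pck1, G6pc, Creb3l3 and Nr1d1 had all 3 Fra1 mutants on one side of the mean log2 CPM of their controls and all 3 Fra2 mutants on the opposite side of theirs. These genes were picked by this pattern, and the share of all genes tested that show it is not given here. On the log2 scale the Fra2 effect minus the Fra1 effect was 1.54 for Pck1, 1.72 for G6pc, 0.79 for Creb3l3 and -0.50 for Nr1d1, a repressor of the clock. The test of this difference, edgeR's quasi-likelihood interaction adjusted over all genes, was passed by none of them, with adjusted p of 0.640, 0.488, 0.454 and 0.835 in that order. Leaving out single libraries and the other settings gave 1.43 to 2.14 for G6pc and 1.24 to 2.00 for Pck1, and none of these 19 alternatives passed either.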

How the results depend on the processing

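In Fra1 mutants, members called numbered 1, with 2 by DESeq2, 0 without a filter and 0 to 1 on leaving out single libraries. The log2 fold change of G6pc there was -1.64 without a filter (call lost) and -1.92 to -1.38 on leaving out single libraries. Other pathway genes called numbered 3, with 6 by DESeq2 and 1 to 3 on leaving out libraries. In Fra2 mutants DESeq2 called 4 of them, against 0. For the mean of both lines DESeq2 called 1 member, against 0, and leaving out libraries gave 0 to 1, while other pathway genes numbered 3 to 6 on leaving out libraries, against 6. Signs turned, all without passing a test, without a scaling factor for Pygl in Fra1 (0.058) and Pcx in Fra2 (0.034). On leaving out single libraries they turned in Fra1 for Pygl (-0.35 to 0.16), Ugp2 (-0.10 to 0.24) and Ppp1r3b (-0.91 to 0.55). In Fra2 they turned for G6pc (-0.22 to 0.50), Pcx (-0.13 to 0.086), Gys2 (-0.48 to 0.15), Slc37a4 (-0.46 to 0.34), Ppp1r3b (-0.46 to 0.13) and Ppp1r3c (-0.53 to 0.10). With the replicate number as a block, G6pc in Fra1 had -1.65 (adjusted p = 0.0251) and all genes called went from 540 to 466 in Fra1 and from 150 to 111 in Fra2. The numbers were not taken to pair the mice. Deviations of same-numbered libraries correlated between -0.12 and 0.06, and not every library correlated best with its own number. Deviations from a mean of 3 libraries sum to 0, and these correlations were not tested. They cannot decide whether same-numbered mice were littermates. All genes called in Fra1 numbered 1021 by DESeq2 and 267 to 582 on leaving out libraries, and in Fra2 448 and 53 to 184. For the mean of both lines DESeq2 called 1348 genes against 878, and for the difference of the lines 69 against 5, with 0 by limma-voom. Without a scaling factor the Fra1 split moved from 408 higher and 132 lower to 674 and 102, and the median over all genes from 0.01 to 0.15. The cause of these shifts was not tested.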
